A study of Mus musculus with 12 samples.

Results

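Ifitm1, Ifitm2 and Ifitm3 encode interferon-induced transmembrane proteins, and are 3 of the 23420 genes in the deposited table. Ifitm1 and Ifitm3 were chosen by a measured value, the difference of their knockout effect between PIR+ and PIR- cells in an earlier fit of these data, and Ifitm2 was taken as the neighbouring member of the family. For Ifitm1 and Ifitm3 the values within each subset are therefore given as a description without a test. What the choice did not use are the averages of the subset difference over genotypes and of the genotype difference over subsets, and these were tested for all 3 genes.

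The libraries come from mouse fetal liver, from lineage-negative cells carrying the receptor tyrosine kinase c-Kit that were sorted for the paired immunoglobulin-like receptor (PIR), 100 cells to a tube. Each subset was taken from wild-type and from KO fetuses, with 3 libraries in each of the 4 groups, and groups follow the sample titles, as the genotype field does. The labels name neither the knocked-out gene nor the strain, so the target could not be checked. They also leave unstated whether replicates are different animals, and p-values then reflect only the spread among these tubes, which may be technical. For 6 of the 12 libraries the PIR sign of the markers field contradicts the title, and the embryonic stage (E12.5 or E14.5) follows the markers field. In that field PIR+ always goes with E12.5 and PIR- with E14.5. The stage of each library is thus uncertain, and if it follows the true PIR sign, subset and stage cannot be told apart. Pira1, Pira2 and Lilrb3, which encode PIR, were above 0 in all 6 libraries titled PIR+ and at 0 in all 6 titled PIR-, so the titles were used. The labels also disagree on whether PIR- cells carry the interleukin-7 receptor. Il7r, its gene, was present in all 6 PIR- libraries (16.1 to 24.4), and also in all 6 PIR+ libraries (9.7 to 20.3).

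Interferons signal through cell-surface receptors and JAK kinases to STAT and IRF transcription factors, which bind short DNA elements near the start of target genes. The IFITM proteins are small membrane proteins among these targets that restrict the entry of enveloped viruses by acting on membrane fusion. They are also expressed without interferon in stem and progenitor cells of several kinds, and IFITM1 is known as a partner of the tetraspanin CD81 at the cell surface.

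The genes lie within 55934 bp of each other on chromosome 7 (GRCm38, GENCODE M21). Ifitm2 (140954837 to 140955987) and Ifitm3 (141009586 to 141010770) are on the minus strand and have 1 annotated transcript each. Ifitm1 (140967221 to 140969825) is on the plus strand between them, with 3 transcripts that begin at 3 different bases. The stretches before the starts are shown because the matches found near them differ between the members. Whether these bear on the levels was not tested. Each is the 100 bases directly before an annotated first exon, and for Ifitm3 the first 30 bases from the RefSeq start are added. That of Ifitm1 lies in an intron of its longest transcript. Sequences are from RefSeq (GRCm38.p6), read 5′ to 3′ on the strand of the gene. Capitals mark a match to the interferon-stimulated response element, searched on both strands as GAAA and GAAA with any 2 bases between them.
Ifitm1, chr7:140967928-140968027, plus strand: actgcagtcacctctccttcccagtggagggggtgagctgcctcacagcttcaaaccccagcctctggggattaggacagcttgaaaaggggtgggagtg
Ifitm2, chr7:140955988-140956087, minus strand: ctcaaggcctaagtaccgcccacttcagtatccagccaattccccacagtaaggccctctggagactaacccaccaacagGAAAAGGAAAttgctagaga
Ifitm3, chr7:141010771-141010870, minus strand: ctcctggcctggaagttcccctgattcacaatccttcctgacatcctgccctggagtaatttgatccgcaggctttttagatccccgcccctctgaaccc
Ifitm3 from its start, chr7:141010715-141010744, minus strand: agGAAAAGGAAActtctgaGAAACCGAAAc

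In the window from 250 bases before to 50 bases after the RefSeq start, Ifitm2 held 1 match to the response element, at positions -46 to -37 from the start. Ifitm3 held 2 matches, at bases 3 to 12 and 20 to 29 after the start, and the first has the same 10 letters (GAAAAGGAAA) as the match of Ifitm2. A match of Ifitm3 to the gamma-activated sequence, searched as TTCNNNGAA, lies at bases 14 to 22 (TTCTGAGAA) and overlaps the second response element. Ifitm1 held no match to either of these or to the TATA box (TATAAA) in its window. The only TATA box match was in Ifitm2, on the opposite strand, at positions -175 to -170. Of 32851 windows of this length, 3.44% held the response element, 8.30% the gamma-activated sequence and 13.6% the TATA box. Among 27 interferon-stimulated genes with a window that were tested here, 12 (44.4%) held the response element, against 3.75% of 3470 tested genes with a window. A match describes letters only.

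Levels below are the deposited normalized molecule counts, with the mean ± SD over the 3 libraries of a group in brackets. They are compared between groups for 1 gene and not between genes. Ifitm1 was at 49.5, 49.3 and 59.7 in PIR+ wild type (52.8 ± 5.95), and at 4.2, 16.2 and 16.7 in PIR+ KO (12.4 ± 7.08). It was at 1.6, 2.3 and 3.1 in wild-type PIR- cells (2.33 ± 0.751), and in their KO counterparts at 3.2, 5.2 and 11.0 (6.47 ± 4.05). PIR+ wild-type libraries thus lay above all 9 others, a pattern bound up with the choice of Ifitm1. How many tested genes share it was not counted. For its part within PIR+ cells, KO below wild type without overlap, the share was 3.04% of tested genes. PIR+ KO libraries overlapped PIR- KO libraries, while PIR- wild type was lowest and lay below PIR- KO without overlap, as in 14.4% of the 4542 genes tested. The nearest values of the 2 PIR- groups, 3.1 and 3.2, are closer than the worth of about 1 molecule (0.490 to 0.775).

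Ifitm3 was at 14.0, 32.9 and 43.4 in PIR+ wild type (30.1 ± 14.9), and at 17.0, 14.9 and 17.5 in PIR+ KO (16.5 ± 1.38). In PIR- cells it was at 2.7, 2.3 and 0.8 in wild type (1.93 ± 1.0) and at 5.3, 5.8 and 8.8 in KO (6.63 ± 1.89). All 6 PIR+ libraries (14.0 to 43.4) lay above all 6 PIR- libraries (0.8 to 8.8). Within PIR+ cells the genotypes overlapped, since the lowest of the 6 libraries was a wild-type one.

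Ifitm2 was at 17.8, 25.6 and 29.1 in PIR+ wild type (24.2 ± 5.78), and at 11.5, 14.9 and 17.5 in PIR+ KO (14.6 ± 3.01). It was at 19.6, 19.4 and 24.8 in PIR- wild type (21.3 ± 3.06) and at 15.4, 15 and 16.9 in PIR- KO (15.8 ± 1.0). In each genotype its PIR+ and PIR- libraries overlapped. All 6 KO libraries (11.5 to 17.5) lay below all 6 wild-type libraries (17.8 to 29.1), though the nearest values are closer than the worth of about 1 molecule (0.490 to 0.775).

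**Figure D1:**
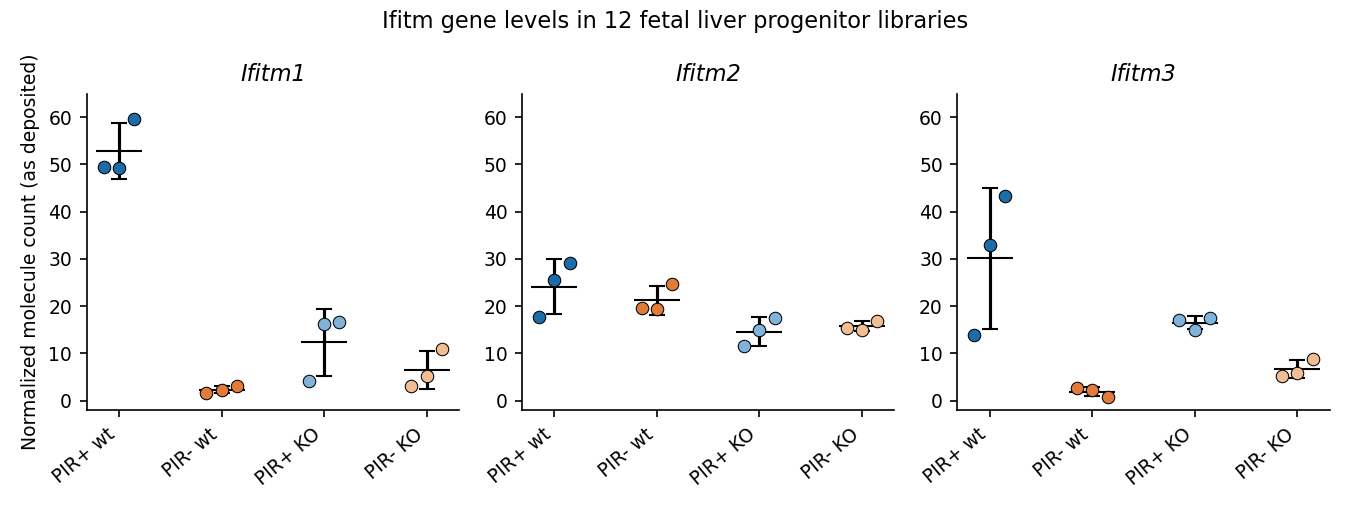
Level of each Ifitm gene (vertical axis, normalized molecule count as deposited) in the 12 libraries by group. Points are libraries, and bars are the mean ± SD of 3. Ifitm1 is high in PIR+ wild type alone (49.3 to 59.7), Ifitm3 is higher in the 6 PIR+ libraries (14.0 to 43.4) than in the 6 PIR- libraries (0.8 to 8.8), and Ifitm2 lies between 11.5 and 29.1 throughout.

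The low levels rest on few molecules. From the step between low values, the 3 PIR- wild-type libraries held an estimated 10 molecules of Ifitm1 (exact Poisson 95% interval 4.80 to 18.4) and 9 of Ifitm3 (4.12 to 17.1). The 3 PIR+ wild-type libraries held an estimated 241 and 136. PIR- KO libraries held 30 of Ifitm1 (20.2 to 42.8) and 32 of Ifitm3 (21.9 to 45.2). These intervals cover counting error only. In bulk tubes of cells, fewer cells expressing a gene and less RNA per cell cannot be told apart.

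Averaged over genotypes, Ifitm1 and Ifitm3 were higher in PIR+ than in PIR- cells. The log2 fold change, on log2(value + 1), was 2.41 ± 0.24 (SE) for Ifitm1 (limma, Benjamini-Hochberg adjusted p = 4.05e-15) and 2.28 ± 0.24 for Ifitm3 (adjusted p = 3.19e-14). Both passed the filter on low values (at least 10 in at least 3 libraries) through PIR+ libraries, so this test was not independent of the filter. In this comparison 55.0% of the 4542 tested genes were called higher in PIR+ and 4.58% lower, and the median gene stood at 0.45, so a call in this direction is common. Only 17.7% of tested genes had all 6 PIR+ above all 6 PIR- libraries, as Ifitm3 had and Ifitm1 had not. Ifitm1 and Ifitm3 were called in all 20 alternative settings, at 1.77 to 2.70 and 1.57 to 2.62. Ifitm2 stood at 0.02 ± 0.18 (adjusted p = 0.931). After median-of-ratios scaling, which sets the median gene near 0, Ifitm2 was at -0.42 and called (adjusted p = 0.0223, range 0.0223 to 0.990 over the alternatives).

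The subset difference was not of one size in the 2 genotypes for Ifitm1 and Ifitm3, which is the contrast that chose them. The PIR+ mean of Ifitm1 was 22.6 times the PIR- mean in wild type and 1.91 times in KO. That of Ifitm3 was 15.6 and 2.48 times the PIR- mean. For Ifitm2 the ratios were 1.14 and 0.928.

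The values within each subset were as follows. For Ifitm1 the PIR+ wild-type mean was 4.27 times the PIR+ KO mean, and the PIR- KO mean was 2.77 times the PIR- wild-type mean. On the log2 scale this is a fold change, KO over wild type, of -2.20 ± 0.34 (SE) in PIR+ and 1.05 ± 0.34 in PIR- cells. For Ifitm3 the corresponding ratios were 1.83 and 3.43, and the log2 fold changes were -0.70 ± 0.34 in PIR+ and 1.42 ± 0.34 in PIR- cells. Over all 12 libraries the larger part of the difference lay in PIR+ cells for Ifitm1 and in PIR- cells for Ifitm3. For Ifitm1 this turned without the 5 libraries rich in globin messages (-1.53 in PIR+ and 1.73 in PIR- cells) and in the 6 libraries with the same PIR sign in title and markers field (-1.51 and 1.73), where the larger part lay in PIR- cells for both genes. The first of these settings leaves 1 PIR- wild-type library, and the second leaves 1 each of PIR- wild type and PIR+ KO. The difference between the effects, PIR+ minus PIR-, was -3.25 ± 0.48 for Ifitm1, -2.12 ± 0.48 for Ifitm3 and -0.28 ± 0.37 for Ifitm2. In that contrast 0.572% of tested genes were called.

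Single libraries carry part of these sizes. Without PIR+ KO replicate 1, the library with 4.2 of Ifitm1 and one of the globin-rich ones, the Ifitm1 fold change in PIR+ was -1.62. Without PIR- KO replicate 3, with 11.0, its fold change in PIR- was 0.64. The Ifitm3 fold change in PIR+ was -1.15 without PIR+ wild-type replicate 1 and -0.37 without PIR+ wild-type replicate 3. The sign held in each of these.

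**Figure D2:**
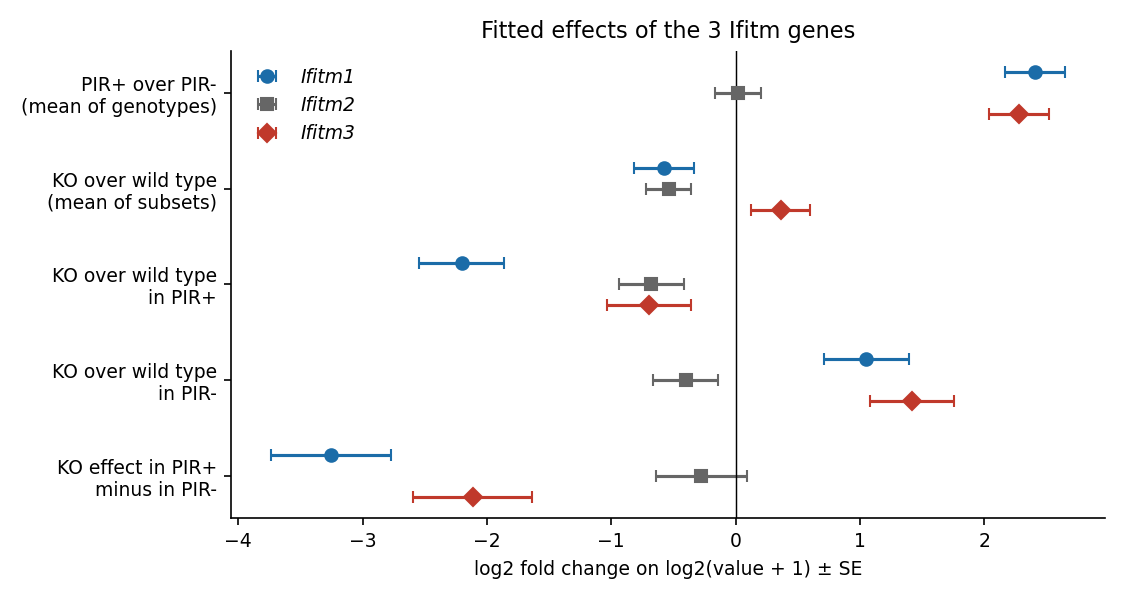
Fitted log2 fold change ± SE (horizontal axis, on log2(value + 1)) of the 3 Ifitm genes in 5 comparisons. Ifitm1 and Ifitm3 lie together in the average subset difference (2.41 and 2.28) and part within PIR+ cells (-2.20 and -0.70), while Ifitm2 stays between -0.68 and 0.02.

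Averaged over subsets, 0 of the 3 genes were called between KO and wild type by limma, and Ifitm1 and Ifitm2 had an unadjusted p under 0.05. In this comparison 1.78% of tested genes were called. The fold change was -0.58 ± 0.24 (SE) for Ifitm1 (adjusted p = 0.245), whose values in the subsets have opposite signs, and 0.36 ± 0.24 for Ifitm3 (adjusted p = 0.478). For Ifitm2 it was -0.54 ± 0.18 (adjusted p = 0.111), with a mean of 22.7 ± 4.43 in the 6 wild-type and 15.2 ± 2.10 in the 6 KO libraries. Only 0.0661% of tested genes, 3 in number and Ifitm2 among them, had all KO libraries below all wild-type libraries. After median-of-ratios scaling Ifitm2 was called lower in KO (-0.69, adjusted p = 0.00414, range 0.00414 to 0.454 over the alternatives). Ifitm1 passed when 5 was added to each value in place of 1 (-0.62, adjusted p = 0.0121, range 0.0121 to 0.834).

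Within subsets Ifitm2 was not called either. Its fold change, KO over wild type, was -0.68 ± 0.26 (SE) in PIR+ cells (limma adjusted p = 0.398), where 0.903% of genes were called, and -0.40 ± 0.26 in PIR- cells (adjusted p = 0.487), where 1.30% were. The KO libraries lay below the wild-type libraries without overlap in both, as in 3.04% of tested genes in PIR+ and 1.01% in PIR- cells. In the authors' deposited table the DESeq2 p-value of Ifitm2 is 0.0171 for PIR+ wild type against PIR+ KO and 0.303 for PIR+ against PIR- wild type. The table does not say whether these are adjusted.

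The 3 genes resemble each other in sequence, and how the authors assigned reads between them is not given in the sources used here. The coding parts of Ifitm2 and Ifitm3 were identical at 76.6% of aligned positions, with a longest shared run of 69 bases. Ifitm1 shared 66.0% with Ifitm3 (longest run 64 bases) and 62.3% with Ifitm2 (40 bases). The libraries were primed at the poly(A) tail, and in the 3′ untranslated part the identity was 60.1% for Ifitm2 and Ifitm3, 57.0% for Ifitm1 and Ifitm2 and 53.2% for Ifitm1 and Ifitm3. The longest shared run there was 26 bases, between Ifitm2 and Ifitm3. Levels of these genes are uncertain to the extent that reads were exchanged, which was not tested.

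The 4 other Ifitm genes in the table were at or near 0. Ifitm5, a bone gene, reached 0.8 and Ifitm6 reached 0.7 in any library, and Ifitm7 and Ifitm10 were listed at 0 in all 12.

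Genes around the cluster were measured beside it. Within 250 kb of the cluster 44 genes are annotated, 33 of them protein-coding, and 7 besides the members were tested. By limma 0 of the 7 were called in any comparison of KO with wild type or in the difference between the effects. An unadjusted p under 0.05 was found for 0 genes in PIR+ cells and for 1, Hras1, in each of the others. Of all tested genes 0.903% were called in PIR+ cells, 1.30% in PIR- cells, 1.78% in the average over subsets and 0.572% in the difference. A count of 0 of 7 is near these shares. In the average of PIR+ over PIR- 4 of the 7 were called higher, near the 55.0% of all tested genes. They were Rnh1, a ribonuclease inhibitor gene (1.11 ± 0.18 SE, limma adjusted p = 2.29e-07), Sirt3, a mitochondrial deacetylase gene (0.92 ± 0.25), the Ras gene Hras1 (0.87 ± 0.21) and Ric8, which encodes a G-protein chaperone (0.55 ± 0.23, adjusted p = 0.0353). Ric8 lost its call in 10 of the 20 alternatives. Sirt3 was at most 7.5 in PIR- libraries, and passed the filter on low values through PIR+ libraries alone. Cyp2e1 (0.09 ± 0.13), the proteasome gene Psmd13 (0.17 ± 0.20) and Phrf1 (0.30 ± 0.21) were not called, and these 3 values turn negative after scaling. The gaps from Ifitm1 to Ifitm2 and to Ifitm3, measured between gene ends, are 11233 and 39760 bp.

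**Figure D3:**
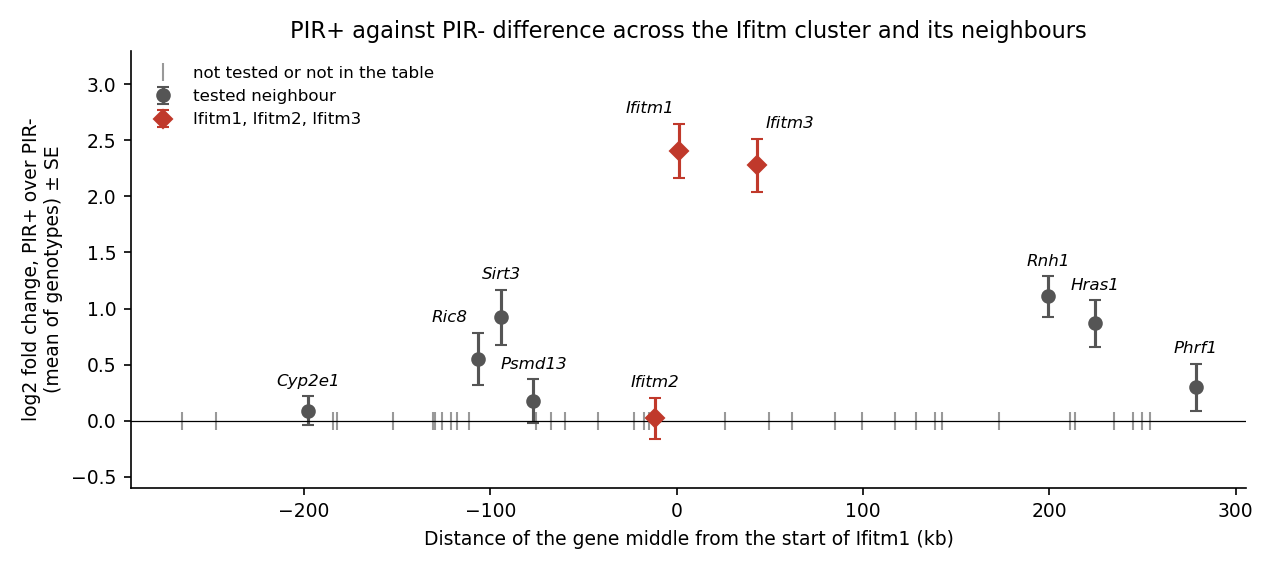
Log2 fold change ± SE, PIR+ over PIR- averaged over genotypes (vertical axis), of the tested genes by distance of their middle from the start of Ifitm1 (horizontal axis, kb). Ticks at 0 mark genes not tested. Ifitm1 (2.41) and Ifitm3 (2.28) stand above the 7 tested neighbours, which reach at most 1.11 (Rnh1), and Ifitm2 lies at 0.02.

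Interferon messages themselves were close to absent. The table has 19 interferon genes, of which 18 were listed at 0 in all 12 libraries, and the highest value of the other, Ifnz, was 0.1. Messages of the receptors and the JAK-STAT pathway were present, with 8 of 18 genes tested. Of these, 5 were higher in PIR+ cells averaged over genotypes and 0 lower, also after scaling, with a list median of 1.24 against 0.45 over all tested genes. The 5 are 62.5% of the list, near the 55.0% of all tested genes called higher before scaling. Ptpn6, a phosphatase that dampens cytokine signalling, was higher by 2.11 ± 0.17 (SE) on the log2 scale (limma adjusted p = 5.81e-20). Ifnar2, a chain of the type I interferon receptor, was higher by 1.77 ± 0.19 (adjusted p = 2.69e-14), Ifngr1 of the interferon-gamma receptor by 1.40 ± 0.18 and the transcription factor gene Stat3 by 1.27 ± 0.22.

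Ifnar2 was the 1 gene of this list called between genotypes, in PIR- cells. Its level there was 6.97 ± 2.66 in wild type and 14.0 ± 2.86 in KO (0.96 ± 0.26 SE, limma adjusted p = 0.0349), a call lost in 9 of 20 alternatives. In PIR+ cells it was at 40.1 ± 3.52 and 31.2 ± 2.52. In the difference between the effects limma called 0 of the 8, and Ifnar2 alone had an unadjusted p under 0.05. Of all tested genes 0.572% were called in that difference, and 1.30% between genotypes in PIR- cells.

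Among interferon regulatory factors and their binding proteins 7 of 12 were tested, and 6 were higher and 1 lower in PIR+ cells (median 0.70). Of all tested genes 55.0% were higher and 4.58% lower, with a median of 0.45. After scaling the counts in this list were 1 and 1. Irf4, a factor of lymphocyte differentiation, was the lower one, at -1.35 ± 0.24 (SE, limma adjusted p = 1.64e-06). It was at most 8.5 in PIR+ libraries, and passed the filter on low values through PIR- libraries alone. Irf1, an activator of interferon-stimulated genes, was at 1.26 ± 0.23, Irf8 of myeloid and B-cell development at 0.88 ± 0.20, and Irf2bp1 at 0.80 ± 0.26. The KO effect on Irf2bp2, which encodes a corepressor bound by IRF2, differed between subsets by -1.36 ± 0.36 (adjusted p = 0.0483), with levels of 38.2 ± 6.88 in wild type and 22.6 ± 6.71 with the KO in PIR+ cells, and 14.6 ± 5.60 and 21.7 ± 1.71 in PIR- cells. That call was lost in 12 of 20 alternatives.

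Interferon-stimulated genes other than the Ifitm family were called mostly between the subsets, as were tested genes in general. Of 101 listed genes 99 were in the table and 30 were tested. Of the 69 not tested, 45 never exceeded 5 and 3 were at 0 in all libraries. In the average of PIR+ over PIR- 20 of 30 (66.7%) were higher and 3 (10%) lower, against 55.0% and 4.58% of all tested genes. The list median was 0.79 against 0.45 over all tested genes. After scaling the counts were 14 and 6, and without the 5 globin-rich libraries they were 15 and 2 of 27. Rtp4, an interferon-induced chaperone gene, was higher by 2.37 ± 0.29 (SE, limma adjusted p = 2.96e-11), with 9.9 to 13.9 in PIR+ and 0.7 to 2.3 in PIR- libraries. Rtp4 thus passed the filter on low values through PIR+ libraries alone. Mndal and Ifi203, of the family of interferon-inducible nuclear DNA-binding proteins, were higher by 2.25 ± 0.15 and 2.15 ± 0.15, and Samhd1, a nucleotide hydrolase that restricts viruses, by 2.12 ± 0.20. The 3 lower genes, Lgals9 (-1.42 ± 0.14), Gbp7 (-0.67 ± 0.19) and Ly6e (-0.45 ± 0.13), were picked out after their values were seen.

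Between genotypes limma called 0 of the 30 in PIR+ cells (1, Ly6e, at an unadjusted p under 0.05) and 2 in PIR- cells, where Ifi203 rose and Ly6e fell. Calls between genotypes were rare among all tested genes, at 0.903% in PIR+ and 1.30% in PIR- cells. Ifi203 rose from 13.9 ± 3.73 to 27.9 ± 6.90 (log2 0.96 ± 0.22 SE, limma adjusted p = 0.00457), and was at 89.3 ± 18.2 and 90.6 ± 9.19 in PIR+ wild type and KO. Ly6e, which encodes a GPI-anchored surface protein acting on virus entry, fell by 0.76 ± 0.19 on the log2 scale (adjusted p = 0.0123), from 144 ± 11.7 to 85.5 ± 13.8. It was also the only one of the 30 called in the average over subsets (-0.58 ± 0.13, adjusted p = 0.00355), with 63.0 to 100.7 in KO and 78.4 to 152.9 in wild-type libraries. In the difference between the effects, where 0.572% of all tested genes were called, limma called 0 of the 30, with 3 at an unadjusted p under 0.05. The median of the 30 was -0.24 against -0.13 over all tested genes. Called changes were lost in 3 of 20 alternatives for Ifi203 and in 5 for Ly6e within PIR- cells.

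**Figure D4:**
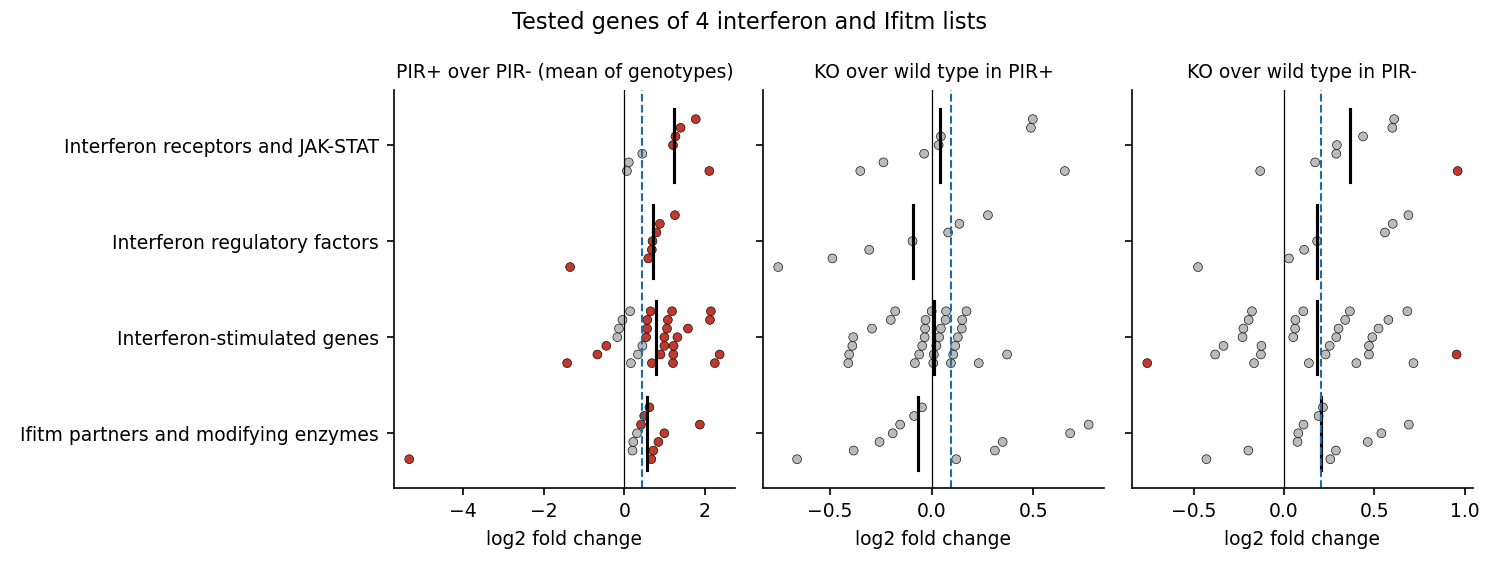
Log2 fold changes (horizontal axes) of the tested genes of 4 lists, in the average of PIR+ over PIR- and for KO over wild type in each subset. Red points were called and grey points were not, black bars are list medians and dashed lines the median of all tested genes. Of 30 interferon-stimulated genes 20 are red and higher on the left, and 0 in PIR+ and 2 in PIR- cells are red for the KO. Of all tested genes 55.0% were called higher on the left, and 0.903% and 1.30% were called for the KO.

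Partners of IFITM proteins and enzymes that modify them were mostly expressed, with 12 of 14 tested. In PIR+ cells 8 were higher and 1 lower (median 0.56), and 3 and 2 after scaling. Before scaling 55.0% of all tested genes were higher and 4.58% lower, with a median of 0.45. The tetraspanin gene Cd9 was higher by 1.87 ± 0.29 (SE, limma adjusted p = 6.80e-08), the methyltransferase gene Setd7 by 0.99 ± 0.24 and the proton pump gene Atp6v0b by 0.85 ± 0.18. Cd9 was at most 3.9 in PIR- libraries, and passed the filter on low values through PIR+ libraries alone. Cd81 was higher in KO averaged over subsets (0.57 ± 0.16, adjusted p = 0.0269), a call lost in 9 of 20 alternatives. By limma 0 of the 12 were called within a subset or in the difference between the effects. At an unadjusted p under 0.05 there were 2 in PIR+ cells, 2 in PIR- cells and 0 in the difference. Of all tested genes 0.903%, 1.30% and 0.572% were called, in the same order.

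Markers of other cells moved with the Ifitm genes in part. The summed level of 8 stem and multipotent progenitor genes was 160.6 to 203.2 in wild-type and 228.3 to 287.5 in KO libraries of PIR+ cells. In PIR- cells it was 9.2 to 20.2 in wild type and 39.8 to 48.5 with the KO. As with Ifitm1 and Ifitm3, PIR- KO lay above PIR- wild type, but PIR+ KO lay above PIR+ wild type. In PIR- cells 2 of the 4 tested genes of this list rose in KO, where 1.30% of all tested genes were called in either direction. Cd34, a progenitor surface protein gene, went from 6.03 ± 1.74 to 19.8 ± 1.30 (limma adjusted p = 6.10e-08), and Cd48 from 4.37 ± 2.34 to 18.4 ± 4.86 (adjusted p = 3.81e-06). Hlf and Gata2 were at 0 in PIR- wild type, and Procr in every group but PIR+ KO. The part of these cells in the Ifitm levels was not tested.

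Sums of 9 B-lineage genes in PIR- cells were 811.3 to 1081.8 in wild type and 675.2 to 1048.4 with the KO, and 25 to 38.7 and 12.8 to 25.2 in PIR+ cells. Within PIR+ cells, where Ifitm1 was lower with the KO, Cd79a of the B-cell receptor fell by 2.33 ± 0.27 (log2 ± SE, limma adjusted p = 1.61e-10). Vpreb3 of the pre-B-cell receptor fell by 1.11 ± 0.30 (limma adjusted p = 0.0467, a call lost in 11 of 20 alternatives). Both passed the filter through PIR- libraries and rest on few molecules in PIR+ cells. Cd79a was there at 5.83 ± 3.10 in wild type and 0.33 ± 0.58 with the KO, and Vpreb3 at 2.17 ± 1.97 and 0.40 ± 0.69. The 6 erythroid genes in the table summed to 20.4 to 612.9 in wild-type and 20.6 to 664.6 in KO libraries of PIR+ cells, and to 137.9 to 1098.8 and 28.8 to 1004.1 in those of PIR- cells. Within PIR- cells the globin genes Hba-a1 and Hba-a2 fell by 2.28 ± 0.64 and 2.55 ± 0.60 with the KO (limma adjusted p = 0.0424 and 0.00590), calls lost in 7 and 6 of 20 alternatives. Without the 5 globin-rich libraries the Ifitm1 difference between the effects was -3.26, from the changed values in each subset given above, and that of Ifitm3 was -1.54. Macrophage genes (9 in the table) summed to at most 4.1 in any library, with Mertk and Vsig4 at 0 in all groups. Of 7 primordial germ cell genes, which Ifitm1 and Ifitm3 also accompany in the embryo, Dppa3, Prdm14 and Tfap2c were at 0 in all 12 libraries, and the sums were 3.9 to 13.7 in PIR+ and 0.0 to 0.8 in PIR- libraries. Endothelial genes (9) summed to 5.3 to 10.2 in wild-type and 11.8 to 20.5 in KO libraries of PIR+ cells, and to 6.2 to 41.2 and 5.3 to 12.8 in those of PIR- cells. For hepatoblast genes (7) these sums, in the same order, were 19.7 to 28.9, 10.8 to 27.8, 16.3 to 67.4 and 14.6 to 25.4. The part of any of these in the Ifitm levels was not tested beyond leaving out the globin-rich libraries.

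The genes most like each member were found by Pearson's r of log2(value + 1) over the 12 libraries, which share sorts and depth, and are given as a description. For Ifitm3 these were Tmem173, which encodes the DNA-sensing adaptor STING (r = 0.970), Dad1 of the oligosaccharyltransferase (0.966), the nuclear body gene Sp110 (0.956), Ifnar2 (0.955) and the TNF receptor family gene Cd27 (0.953). Tmem173 was at 29.2 to 51.5 in PIR+ and 6.2 to 14.7 in PIR- libraries. After scaling these values were 0.959, 0.814, 0.927, 0.926 and 0.936. Sp110 and Ifnar2 are also in the interferon lists above.

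For Ifitm1 the 5 were Prkaca, a catalytic subunit of protein kinase A (r = 0.946), the zinc finger gene Zfp385a (0.943), the fatty acid synthase gene Fasn (0.931), the translocon gene Sec61a1 (0.921) and Wdr74 (0.920). After scaling they were at 0.858, 0.918, 0.921, 0.936 and 0.773, and none is in an interferon list. Zfp385a was at 22.2 ± 3.28 in wild-type and 9.97 ± 3.11 in KO libraries of PIR+ cells, and at 5.20 ± 3.55 and 6.57 ± 1.42 in those of PIR- cells. The correlation of Ifitm1 with Ifitm3 was 0.839, and those of Ifitm2 with Ifitm1 and with Ifitm3 were 0.394 and 0.0738. After scaling these were 0.794, -0.0638 and -0.416, so both values of Ifitm2 changed sign. By r, Ifitm3 had rank 99 among the tested genes for Ifitm1 (51 after scaling). Ifitm1 had rank 491 for Ifitm3 (190 after scaling), so many genes were closer to Ifitm3.

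**Figure D5:**
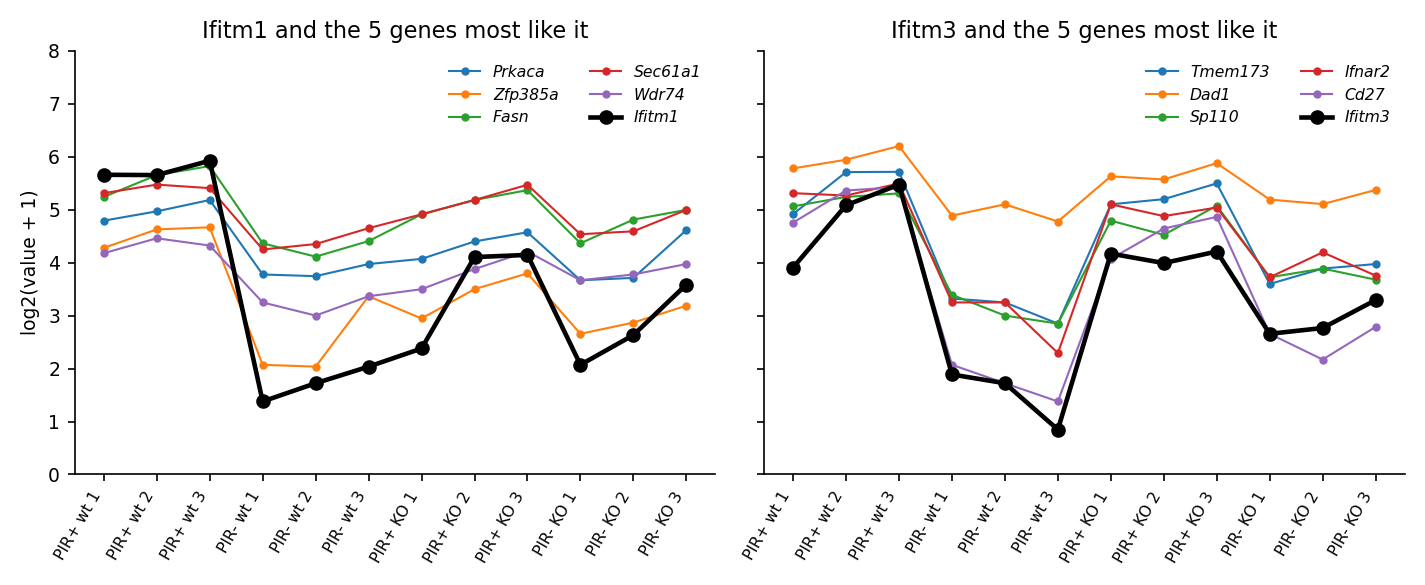
Level of Ifitm1 (left, black) and Ifitm3 (right, black) and of the 5 genes most like each (vertical axis, log2(value + 1)) in the 12 libraries. Lines only join the values of 1 gene. The genes beside Ifitm3 split the 6 PIR+ from the 6 PIR- libraries, with PIR+ higher, as 17.7% of tested genes do. Those beside Ifitm1 are highest in PIR+ wild type or near their highest there. Both patterns follow from picking the genes by likeness in the same libraries.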

How the data were processed

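Gene levels were read from the deposited table of 12 libraries, whose values (unit signal) are molecule counts that the authors normalized and rounded to 1 decimal. TopHat2, mm10 and DESeq2 are named in the submitters' processing notes, and their versions and the counting were not given in the sources used here. Deposited library sums ran from 155374 to 284648, and 93.0% to 94.2% of values under 15 lay within 0.055 of a multiple of 1 step, so whole counts are not claimed and molecule numbers are estimates. The table also holds 2 columns of DESeq2 p-values made by the authors.

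limma 3.58.1 (R 4.3.3) with a trended prior was fitted on log2(value + 1) with 4 group means over the 4542 genes with at least 10 in at least 3 libraries. A gene low in 1 subset could enter only through the other, so its test between subsets was not independent of the filter. Benjamini-Hochberg adjusted p under 0.05 within a comparison was called. The test was also run on simulated counts with little spread beyond counting error and no filter, which cannot vouch for calls in these libraries. The added 1 makes fold changes of low genes smaller than ratios of means. The 20 alternatives changed scaling, constant, filter, replicate block, embryonic day as labelled or libraries.

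The members and the 14 gene lists were chosen with earlier results of these data known. Named genes were the members, other Ifitm genes, tested neighbours, up to 4 called genes per list and comparison with the largest fold change, the 5 genes most like Ifitm1 and Ifitm3, and sort genes. Values of 2 called list genes are not reported here. Annotated names were matched to the table by symbol or RefSeq synonym. Alignments used Biopython 1.88 and figures matplotlib 3.10.9 (Python 3.11.15).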

Additional observations from a re-analysis of the deposited data

Results flagged for a closer look

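The difference of the KO effect between PIR+ and PIR- cells was -3.25 for Ifitm1 and -2.12 for Ifitm3 (log2). It is the reason these genes were chosen, and is given with no test. For 3 other named genes limma's test of the difference was passed. For the B-cell receptor gene Cd79a it was -2.09 (limma adjusted p = 0.000397), lost in 2 of 20 alternatives. For Cd34 it was -1.34 (adjusted p = 0.00776), lost in 6, and for Irf2bp2 it was -1.36 (adjusted p = 0.0483), lost in 12. The Cd79a value rests on few molecules in PIR+ cells, where its mean level was 5.83 in wild type and 0.33 with the KO.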

How the results depend on the processing

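In all 20 alternatives Ifitm1 and Ifitm3 were called higher in PIR+ averaged over genotypes. Their KO effects within subsets kept their sign, while the Ifitm2 difference between the effects ran from -0.47 to 0.01. Counts of called genes moved more. Leaving out the globin-rich libraries leaves 1 library of PIR- wild type, and matching markers leave 1 each of PIR- wild type and PIR+ KO, so a lone sample is assumed to vary like the other groups. In PIR+ cells KO changed 41 genes, 24 without the globin-rich libraries, 22 in the 6 libraries with matching markers (the same PIR sign in title and markers field), and 27 to 45 leaving out 1 library. In PIR- cells 59 became 31 without the filter, 30 without the globin-rich libraries and 33 to 87 leaving out 1. The difference between effects had 26 calls, 3 without the filter, 5 without the globin-rich libraries, 10 with matching markers and 15 to 33 leaving out 1. PIR+ against PIR- had 2706 (2498 higher and 208 lower), 1341 after scaling (685 and 656), 1315 without the globin-rich libraries and 2177 to 2829 leaving out 1. KO averaged over subsets had 81, 43 without the filter, 537 with matching markers and 48 to 138 leaving out 1. Scaling also moved the calls higher and lower from 20 and 21 to 16 and 29 (PIR+ KO), 49 and 10 to 46 and 32 (PIR- KO), 5 and 21 to 13 and 21 (difference) and 68 and 13 to 65 and 53 (KO average). Whether the replicate numbers pair the samples was not settled. Deviations of 18 same-numbered pairs correlated at -0.106 to 0.163, 1 over 0.1, and 4 of 12 libraries correlated best with their own number. Such a correlation over genes cannot show a shift shared by all genes of a library. Replicate 3 had the largest deposited sum in each of the 4 groups, so a link between same-numbered libraries remains possible. With the number as a replicate block the counts were 62 (PIR+ KO), 209 (PIR- KO) and 284 (KO average), and Ifitm2 was called in the KO average (adjusted p = 0.0241).

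The sign of uncalled values turned for Ifitm1 in the KO average (0.10 without the globin-rich libraries, 0.11 with matching markers) and for Ifitm2 in PIR+ over PIR- (-0.42 after scaling and -0.051 to 0.12 leaving out 1 library, below 0 without PIR+ wild-type replicate 2 or 3, PIR- wild-type replicate 1 or 2 or PIR+ KO replicate 3). In the same comparison it turned for Cyp2e1 (-0.37 after scaling, -0.037 to 0.18 leaving out 1 library, below 0 without PIR- KO replicate 2), Psmd13 (-0.26 after scaling) and Phrf1 (-0.14 after scaling). The causes were not tested. With about 1 molecule worth 0.490 to 0.775, levels under 5 rest on few molecules.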
